A study of Mus musculus with 4 samples.

Results

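Genes that macrophages use to take up, store, break down and export lipid were followed through single leukocytes of the mouse hindpaw. They were chosen by symbol alone, as the 10 rows named Lpl, Cd36, Fabp4, Fabp5, Trem2, Plin2, Lipa, Apoe, Abca1 and Abcg1 among the 32285 genes of the deposited matrices, and each symbol was present in all 4 libraries. The libraries were made by droplet single-cell RNA-seq, which counts the 3' ends of transcripts through unique molecular identifiers (UMIs), on CD45+ cells sorted from digested hindpaws of male mice. DB mice were homozygous for the db allele of the leptin receptor gene Lepr on the C57BLKS/J background, a mouse model of obesity and Type 2 diabetes, and WT mice were their Lepr WT/WT littermates. Both genotypes were taken at 12 weeks and at 21 weeks, which gives the groups 12WT, 12DB, 21WT and 21DB, and each group was 1 library from the pooled cells of a few mice.

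Foam cells and other lipid-laden macrophages take up fatty acids and modified lipoproteins, esterify what they do not burn and keep it in lipid droplets, and hand cholesterol back to apolipoproteins outside the cell. Cholesterol derivatives that build up in the cell switch on liver X receptors, which raise the transcription of Apoe, Abca1 and Abcg1, while fatty acids act through peroxisome proliferator-activated receptors on genes such as Cd36, Fabp4 and Plin2. Lyve1, a hyaluronan receptor, and Vsig4, a complement receptor, mark resident macrophages in several tissues.

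For orientation, the genes were placed on the mouse genome (build GRCm38). Apoe lies at chr7:19696109-19699188 on the minus strand and Abca1 at chr4:53030787-53159895, Plin2 at chr4:86648386-86670060, both also on the minus strand. Trem2 lies at chr17:48346401-48354147 and Abcg1 at chr17:31057675-31117988, both on the plus strand. Lpl lies at chr8:68880491-68907448 on the plus strand, Cd36 at chr5:17781690-17888801 on the minus strand and Lipa at chr19:34492318-34527474 on the minus strand. The fatty acid binding genes Fabp5 (chr3:10012548-10016607, plus strand) and Fabp4 (chr3:10204088-10208576, minus strand) are on the same chromosome. The annotation also holds Fabp5l2, a copy of Fabp5, and reads that both copies share could have been left out of either, so that the level of Fabp5 is uncertain.

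The 250 bases before the transcription start are shown for 3 of the genes because they differed most between the DB and WT libraries among the genes with an annotated promoter within 1 base of the gene's start: Apoe and Plin2, which were higher in DB at 21 weeks, and Abca1, which was lower in DB at both ages. The sequences are those of RefSeq on GRCm38.p6, read 5' to 3' on the strand of the gene, and capitals mark matches on either strand to AGGTCA (the core of nuclear receptor sites, read TGACCT on the other strand) or CACGTG (an E-box).
Apoe, chr7:19699189-19699438: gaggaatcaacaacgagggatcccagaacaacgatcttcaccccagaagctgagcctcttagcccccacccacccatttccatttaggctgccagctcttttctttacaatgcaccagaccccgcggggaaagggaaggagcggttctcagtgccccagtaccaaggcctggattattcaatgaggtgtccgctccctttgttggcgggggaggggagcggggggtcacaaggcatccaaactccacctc
Abca1, chr4:53159896-53160145: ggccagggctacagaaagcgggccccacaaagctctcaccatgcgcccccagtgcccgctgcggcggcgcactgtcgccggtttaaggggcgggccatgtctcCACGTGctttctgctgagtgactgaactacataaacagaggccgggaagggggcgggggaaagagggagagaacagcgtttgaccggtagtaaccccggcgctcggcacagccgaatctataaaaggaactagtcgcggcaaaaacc
Plin2, chr4:86670060-86670309: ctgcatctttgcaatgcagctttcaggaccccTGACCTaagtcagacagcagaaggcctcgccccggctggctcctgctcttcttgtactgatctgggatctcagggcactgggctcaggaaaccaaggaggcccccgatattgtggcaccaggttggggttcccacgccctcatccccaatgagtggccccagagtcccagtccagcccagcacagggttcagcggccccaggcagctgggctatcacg
The Plin2 window held TGACCT at bases 33 to 38, 218 bases before the start, and AGGTCA on either strand was present in 14.03% of all 32817 promoter windows of this length. The Abca1 window held CACGTG at bases 104 to 109, which occurred in 6.02% of all windows. In the Apoe window, neither motif was found, nor was TGANTCA, an AP-1 site that 6.75% of all windows held. These matches describe the letters of the windows only.

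Over the 4 libraries, 30793 barcodes carried 229493806 UMIs, and 27800 passed the limits of 200 detected genes or more and a mitochondrial share of 10% or less (5271 in 12WT, 6552 in 12DB, 7270 in 21WT and 8707 in 21DB). Macrophages were the barcodes whose highest marker score was that of C1qa, C1qb, C1qc, Pf4, Csf1r, Mrc1, Adgre1 and Fcgr1, of which all 8 were detected in every library. They were split into Vsig4+ cells, Vsig4- Lyve1+ cells and Vsig4- Lyve1- cells, called Lyve1+ and Lyve1- here, although 89.7% to 96.2% of the Vsig4+ cells also had a UMI of Lyve1. Macrophages numbered 1333 in 12WT, 1387 in 12DB, 1162 in 21WT and 1045 in 21DB, with a median of 8704 to 10278 UMIs. The 21WT and 21DB libraries shared 154 barcodes, 1.88% of the smaller library, and leaving out every barcode found in more than 1 library, a step added after the data had been seen, moved no ratio of the 10 genes in macrophages by more than 0.04 on the log2 scale. Lepr itself had 28, 16, 30 and 17 UMIs in 12WT, 12DB, 21WT and 21DB, and because the counts are per gene and the db allele alters splicing, this does not check the genotype.

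Within the macrophage gate, adipocyte markers left little RNA, while dendritic cell, monocyte and osteoclast markers were present at levels that differed between the groups. Of 6 adipocyte markers, 1 to 3 were detected in a library, their summed level was 0.156 to 0.880 CPM (UMIs per 1000000 UMIs of the summed cells), and Lep was at 0 in all 4 libraries. The 7 markers of type 2 conventional dendritic cells (cDC2), which include MHC class II genes, summed to 5675 CPM in 12WT, 4422 in 12DB, 7617 in 21WT and 741 in 21DB. The 6 monocyte markers summed to 219, 327, 238 and 78.4 CPM in the same order, and the 4 osteoclast markers, of which Ocstamp was at 0 in 3 libraries, to 27.2, 25.1, 37.1 and 105 CPM. Early response genes such as Fos and Jun, a sign of stress during digestion, summed to 6333, 3636, 7507 and 6916 CPM, and the median share of mitochondrial UMIs was 3.60%, 2.73%, 4.17% and 2.31%. Of the macrophage markers, C1qa, C1qc, Csf1r, Mrc1, Adgre1 and Fcgr1 were lower in DB than in WT at both ages. Adgre1 was at 385, 242, 295 and 163 CPM in 12WT, 12DB, 21WT and 21DB. Pf4 was higher in DB at both ages, at 3586, 4368, 2648 and 3474 CPM, and C1qb at 21 weeks only. The part of these values in the results below was not tested.

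Where in the hindpaw leukocytes the 10 genes were expressed was read from the 15 classes with at least 20 barcodes in every library. Apoe, the apolipoprotein that macrophages secrete to accept cholesterol, Cd36, a scavenger receptor and fatty acid translocase, and Trem2, a receptor for lipids and lipoproteins, were macrophage genes. Macrophages gave 70.9% to 80.8% of all Apoe UMIs, 65.4% to 72.2% of the Cd36 UMIs and 63.6% to 73.6% of the Trem2 UMIs of a library, while they held 18.8% to 27.5% of all UMIs. For each of these 3 genes, the 3 macrophage subsets had the 3 highest mean levels of the 15 classes, as they had for Abca1 and Lipa. For Trem2 the lowest macrophage value (353 CPM) lay above the highest value of every other class (123 CPM). The lowest macrophage value of Apoe was 2768 CPM, below the highest value of monocyte-like cells (3877 CPM). For Cd36 the lowest macrophage value was 319 CPM, above all values of cDC2-like cells (at most 228 CPM) but not above those of fibroblasts (up to 363 CPM).

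**Figure D1:**
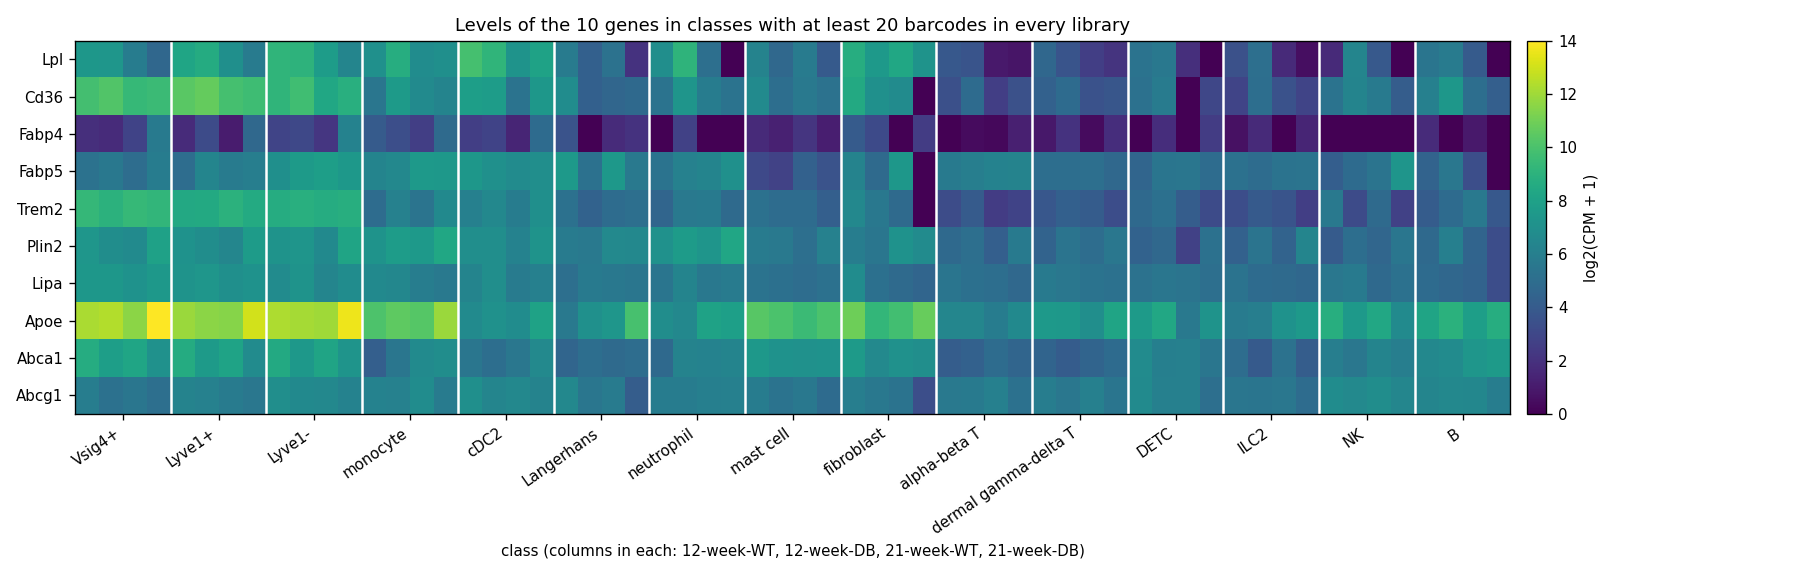
Levels of the 10 genes as log2(CPM + 1) (colour) in 15 classes of leukocytes and other cells, with the 4 libraries as columns in each class. Apoe, Cd36, Trem2, Abca1 and Lipa were highest on average in the 3 macrophage subsets, while Abcg1 and Plin2 were spread over many classes.

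In contrast, Lpl, the lipase that frees fatty acids from lipoproteins, had its highest mean level in cDC2-like cells, at 951 CPM in 12WT, 568 in 12DB, 144 in 21WT and 262 in 21DB. The ranges over libraries of cDC2-like cells, Lyve1- macrophages and fibroblasts overlapped, so that the order of these classes is not set. Plin2, which coats lipid droplets, was highest on average in monocyte-like cells (145, 213, 180 and 326 CPM in 12WT, 12DB, 21WT and 21DB) and neutrophils, again with overlapping ranges. The cholesterol exporter Abcg1 differed least between classes, and its highest mean was in NK cells (101.4 ± 14.1 CPM, SD over the 4 libraries), within the range of Lyve1- macrophages (95.4 ± 19.6). Mast cells had Apoe at 1337, 1039.5, 749 and 1048 CPM.

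Because free RNA in the droplets gives stray UMIs, the share of barcodes with a UMI was set beside that in alpha-beta T cells, after each barcode had been thinned to 2000 UMIs and shallower ones had been left out (17 to 30 macrophages and 9 to 46 T cells a library). Thinned, Apoe was found in 75.3%, 60.1%, 61.7% and 78.7% of macrophages in 12WT, 12DB, 21WT and 21DB, against 12.8%, 13.9%, 9.75% and 18.6% of T cells. Without thinning, the shares were 88.8%, 80.7%, 78.8% and 90.8% of macrophages and 36.5%, 31.5%, 22.2% and 41.4% of T cells. Trem2 was thus found in 45.7% to 56.6% of thinned macrophages against 0.619% to 2.94% of T cells, and Cd36 in 54.8% to 70.6% against 0.774% to 4.62%. The shares of macrophages and T cells overlapped for Abcg1, at 7.98% to 12.8% and 7.10% to 13.3%, and for Fabp5, at 7.98% to 12.4% and 7.66% to 11.1%, so that a UMI of these genes in a single barcode does not set macrophages apart. The median depths behind the unthinned shares were 8704 to 10278 UMIs in macrophages and 4916 to 5576 in T cells.

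Comparisons between macrophage subsets were made inside each library, with the 4 libraries as replicates, by edgeR's quasi-likelihood test on summed UMIs with a library block and Benjamini-Hochberg adjustment over all 11030 genes tested. Between Vsig4+ and Lyve1- cells, 3 of the 10 genes were higher (Cd36, Lipa, Trem2) and 3 lower (Lpl, Fabp5, Abcg1), where 14.9% of all genes were called higher and 13.8% lower. Lyve1+ against Lyve1- cells gave 2 higher (Cd36, Lipa) and 5 lower (Lpl, Fabp5, Abcg1, Apoe, Plin2), against 8.79% and 9.58% of all genes. Vsig4+ against Lyve1+ cells gave 2 higher (Apoe, Trem2) and 3 lower (Lpl, Abcg1, Cd36), against 4.18% and 2.09%. All 10 genes passed the filter on low counts in each comparison. Median log2 fold changes of the 10 genes were -0.08, -0.52 and 0.20 in these comparisons, where the medians of all genes were between 0.00 and 0.01.

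**Figure D2:**
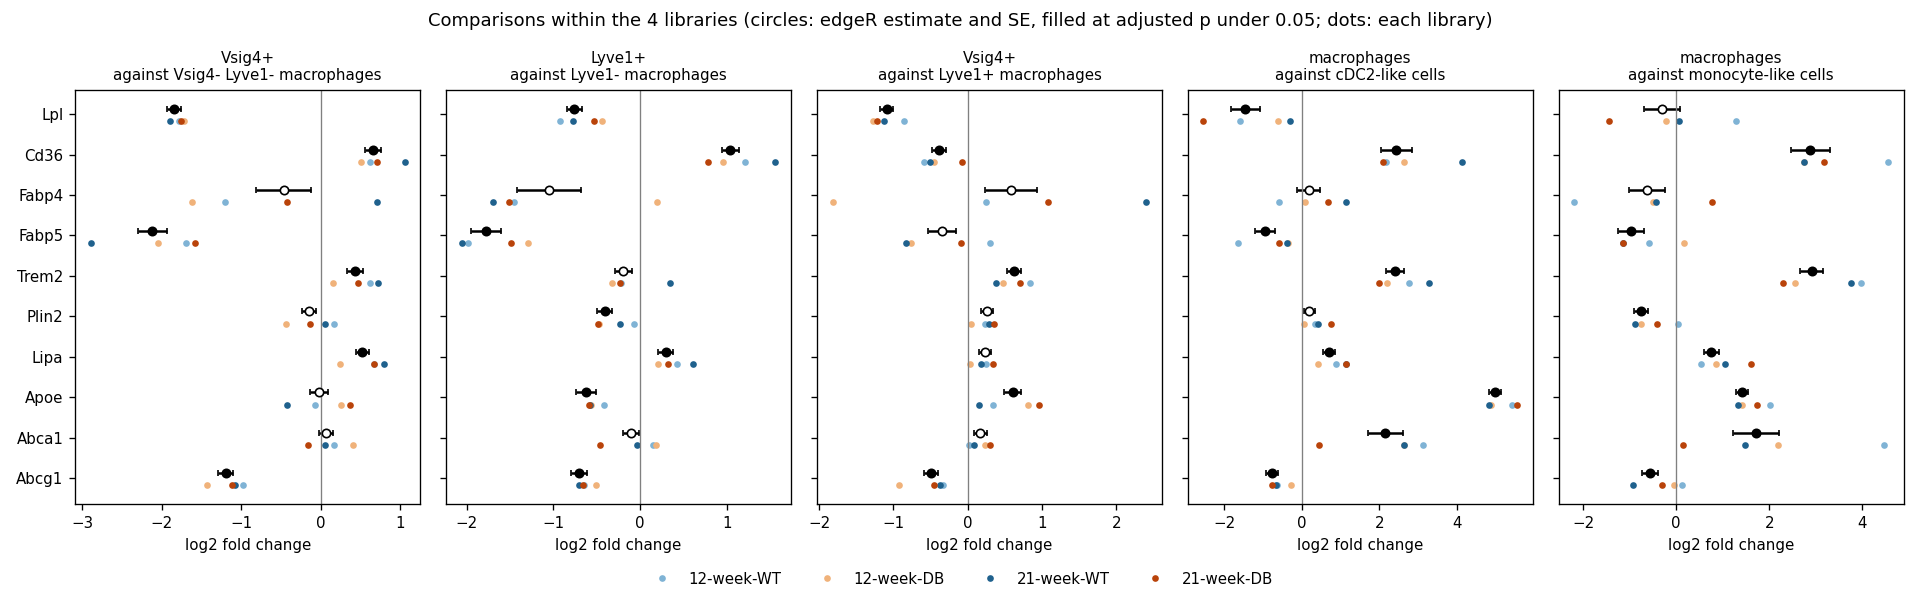
Log2 fold changes of the 10 genes in 5 comparisons made within the 4 libraries, with the edgeR estimate and its standard error (circles, filled at an adjusted p under 0.05) and the difference in each library (dots). Lpl, Fabp5 and Abcg1 lay below 0 in all 4 libraries in Vsig4+ and in Lyve1+ cells against Lyve1- cells, and Cd36 lay above 0.

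A subset was defined by a single UMI of Vsig4 or Lyve1, so deeper barcodes were more often positive, and the median depth was 9922.5 to 12006 UMIs in Vsig4+ cells against 6999 to 9011 in Lyve1- cells. Where thinning to a fixed depth or another definition of the subsets ended a call, this is given with the gene.

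DB and WT were compared with no replicate check, since each condition was 1 library, and a gene was counted as past the fold at a ratio of at least 1.5 among genes with at least 50 UMIs over both libraries and at least 20 CPM in the higher one. The 95% intervals given with levels (Poisson) and ratios (binomial) cover counting error only. At 12 weeks, 1 of the 10 genes was past the fold upwards in DB macrophages (Fabp5) and 1 downwards (Abca1), with Fabp4 too low to count, where 2.21% and 5.62% of 6569 genes were past it. At 21 weeks, 3 genes were past it upwards (Fabp4, Apoe, Plin2) and 2 downwards (Lpl, Abca1), where 8.22% and 7.76% of 6324 genes were. TMM scaling turned the split over all genes at 21 weeks from 520 higher and 491 lower into 390 higher and 642 lower and left the same 5 of the 10 genes past the fold. In the Lyve1+ and in the Lyve1- subset alone, the counts were again 3 and 2 at 21 weeks (10.5% and 9.88% of all genes in Lyve1+ cells, 13.1% and 10.3% in Lyve1- cells), and in Vsig4+ cells 4 and 2 (8.09% and 8.82%), the additional gene being Fabp5. At 12 weeks, Vsig4+ cells had 0 genes past the fold upwards and 2 downwards, Abca1 and Abcg1 (2.32% and 4.22% of all genes). Lyve1+ cells had 1 and 1 (3.34% and 6.79%) and so had Lyve1- cells (5.57% and 8.06%), Fabp5 upwards and Abca1 downwards in both.

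**Figure D3:**
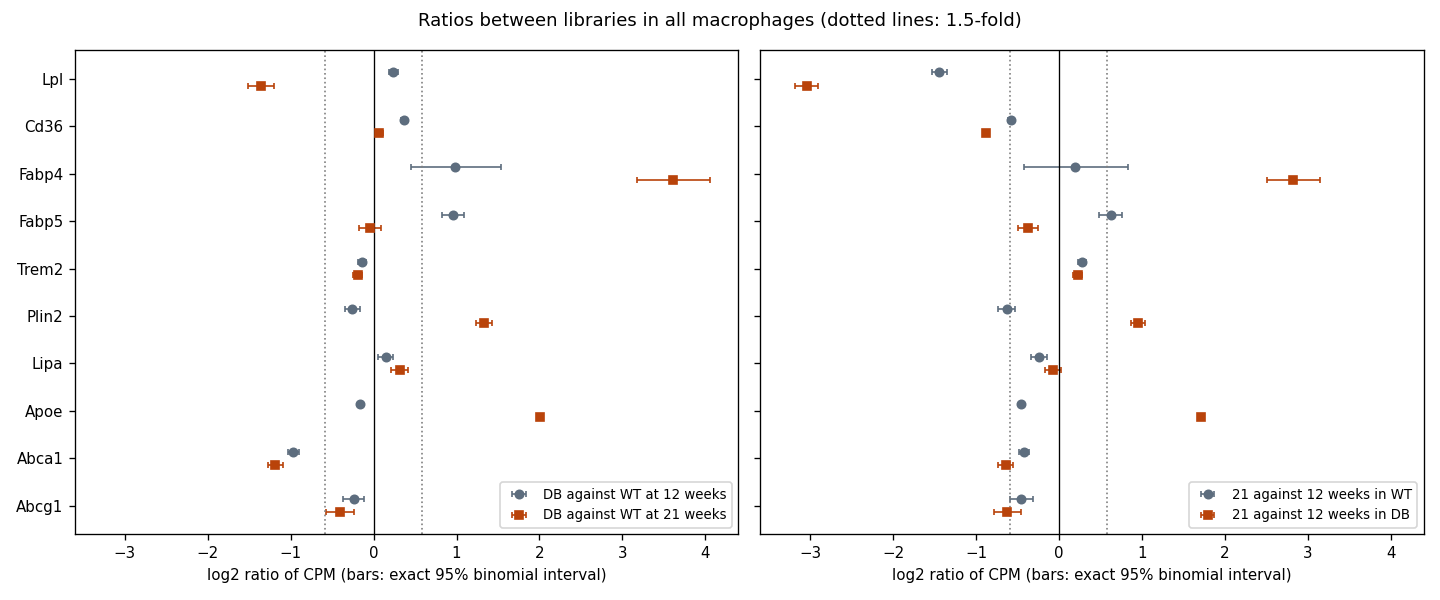
Log2 ratios of CPM in all macrophages for DB against WT (left) and 21 against 12 weeks (right), with exact 95% binomial intervals and dotted lines at 1.5-fold. Apoe, Plin2 and Fabp4 lay above the line in DB at 21 weeks and in DB with age, and Abca1 lay below it in DB at both ages.

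Between ages, the 12-week files were made with Cell Ranger 5.0.0 and the 21-week files with 6.0.0 by their headers, although the submitters' processing notes name 5.0.0 for all 4 libraries. By the headers, age and software cannot be told apart. The median log2 ratio of all genes was -0.14 in WT and -0.15 in DB. In WT, 1 gene was past the fold upwards at 21 weeks (Fabp5) and 2 downwards (Lpl, Plin2), where 1.58% and 6.79% of 6446 genes were. In DB, 3 were past it upwards (Fabp4, Apoe, Plin2) and 4 downwards (Lpl, Cd36, Abca1, Abcg1), where 5.57% and 13.3% of 6496 genes were. TMM scaling changed the split over all genes from 102 higher and 438 lower to 216 and 190 in WT and from 362 and 866 to 463 and 639 in DB, and with it Plin2 in WT (-0.47) and Abca1 (-0.58) and Abcg1 (-0.56) in DB were no longer past the fold. In DB this also held for Abca1 with classes from clusters (-0.57) and for Abcg1 after thinning (-0.39). By subset, the WT counts were 0 upwards and 3 downwards (Lpl, Apoe, Plin2) in Vsig4+ cells (1.95% and 7.38% of all genes), 1 (Fabp5) and 2 (Lpl, Plin2) in Lyve1+ cells (2.17% and 10.1%) and 1 (Fabp5) and 2 (Lpl, Cd36) in Lyve1- cells (3.24% and 12.4%). The DB counts were 3 upwards in each subset, again Fabp4, Apoe and Plin2, with 3 downwards in Vsig4+ cells (5.94% and 17.3%), 4 in Lyve1+ cells (6.33% and 14.3%) and 2 in Lyve1- cells (8.26% and 17.0%), Lpl and Cd36 being lower in all 3. The 21 against 12 week ratios share libraries with the DB against WT ratios and are not independent of them.

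The subset composition of the macrophages differed between libraries, from 317 Vsig4+ cells among 1387 in 12DB to 456 among 1045 in 21DB. The DB against WT log2 ratios at 21 weeks were also computed with the weights of the 3 subsets held fixed. They were 2.00 for Apoe, 1.34 for Plin2, 3.64 for Fabp4, -1.28 for Lpl and -1.17 for Abca1. In the pooled macrophages they were 2.01, 1.33, 3.61, -1.36 and -1.18. Other differences inside the gate, such as those in dendritic cell, monocyte and osteoclast markers, were not held fixed. The part of composition was not tested.

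**Figure D4:**
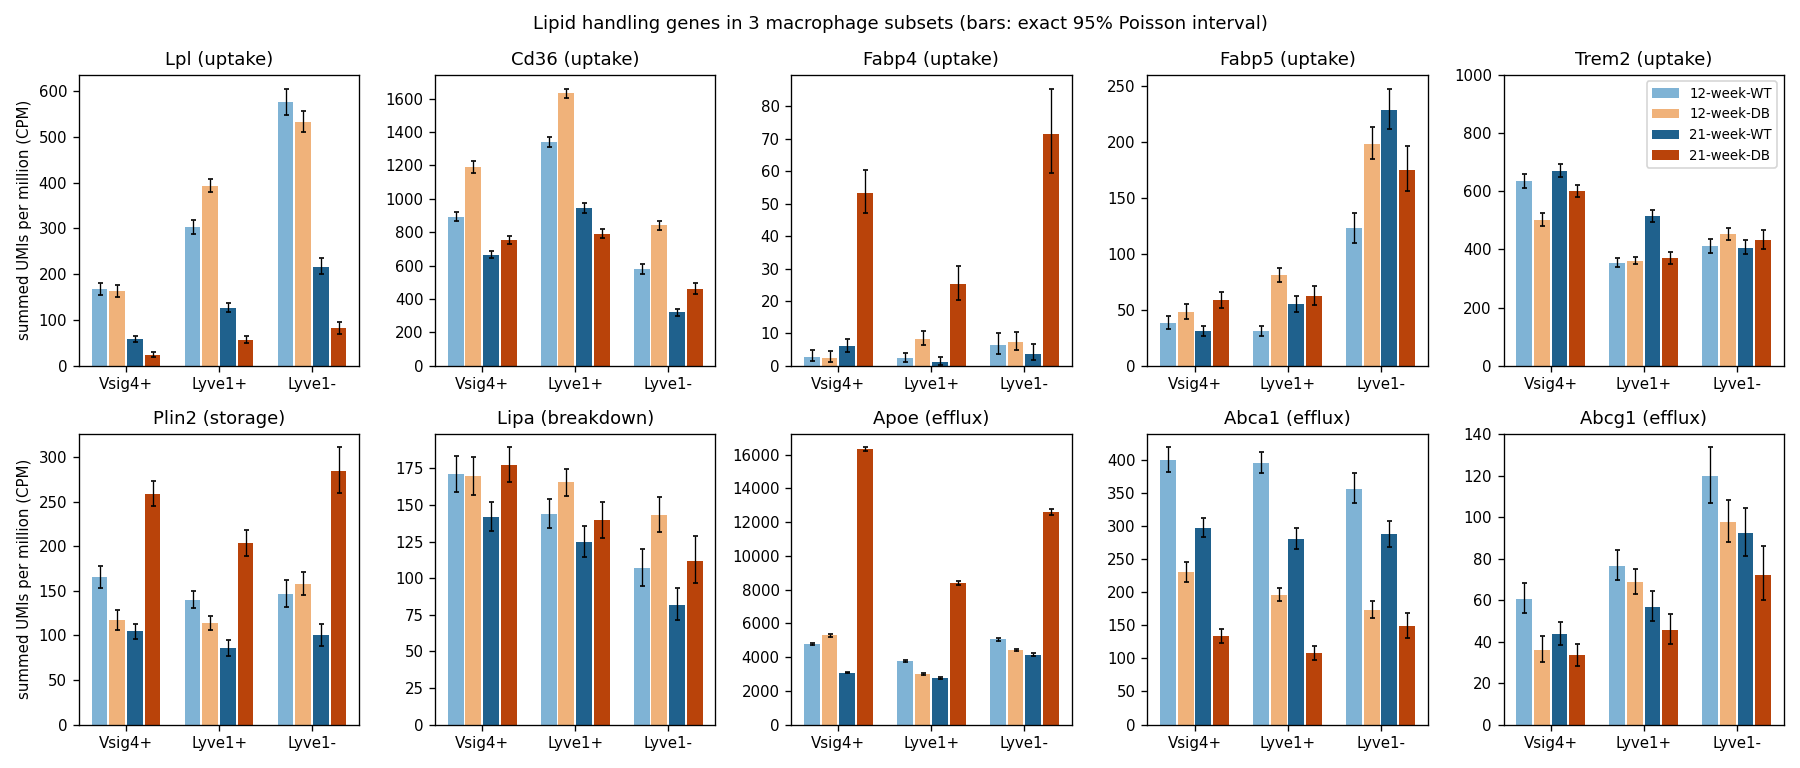
Levels of the 10 genes in CPM (bars) with exact 95% Poisson intervals in the Vsig4+, Lyve1+ and Lyve1- macrophages of each library, each panel with its own linear axis from 0. In all 3 subsets the 21DB bar was the highest for Apoe, Plin2 and Fabp4 and the lowest for Lpl and Abca1.

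Among the uptake genes, Lpl was graded across the subsets and lower at 21 weeks. Its level was 314 CPM in 12WT macrophages, 370.2 in 12DB, 115 in 21WT and 45.1 in 21DB, and both 21-week libraries lay below both 12-week libraries. In Vsig4+ cells the levels were 167, 162, 58.0 and 24.2 CPM in 12WT, 12DB, 21WT and 21DB, in Lyve1+ cells 302, 392, 127 and 56.4 CPM, and in Lyve1- cells 575, 532, 217 and 81.6 CPM. Within every library the order was therefore Lyve1- above Lyve1+ above Vsig4+. By edgeR, Lpl was lower in Vsig4+ than in Lyve1- cells (log2 fold change -1.85, SE 0.09, adjusted p = 1.96e-09), lower in Lyve1+ than in Lyve1- cells (-0.76, SE 0.09, adjusted p = 1.69e-05) and lower in Vsig4+ than in Lyve1+ cells (-1.09, SE 0.09, adjusted p = 4.86e-06). The DB against WT ratio of Lpl was 1.18 at 12 weeks (95% interval 1.13 to 1.23), short of the fold, while at 21 weeks the level was 2.56-fold lower in DB (2.31 to 2.85). With cell classes taken from clusters instead of marker gates, the 21-week log2 difference shrank from -1.36 to -0.61, still past the fold. From 12 to 21 weeks, Lpl was 2.72-fold lower in WT (2.56 to 2.88) and 8.22-fold lower in DB (7.47 to 9.05), or -1.30 and -2.88 on the log2 scale relative to the median of all genes. Macrophages had less Lpl than cDC2-like cells (edgeR log2 fold change -1.45, SE 0.38, adjusted p = 0.0083), and against monocyte-like cells the difference did not pass the test (-0.31, SE 0.39, adjusted p = 0.55).

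Cd36 was highest in the Lyve1+ subset. Its macrophage level was 1026 CPM in 12WT, 1321 in 12DB, 687 in 21WT and 719 in 21DB. Lyve1+ cells had 1342, 1631, 944 and 792 CPM in these libraries, Vsig4+ cells 893, 1189.8, 664 and 754 CPM and Lyve1- cells 579, 840.4, 319 and 461 CPM, so that Lyve1- cells were lowest in each. By edgeR, Cd36 was higher in Lyve1+ (log2 fold change 1.04, SE 0.10, adjusted p = 4.74e-06) and in Vsig4+ cells (0.66, SE 0.10, adjusted p = 0.00014) than in Lyve1- cells, although the second call was lost after thinning (0.28, adjusted p = 0.0592). It was lower in Vsig4+ than in Lyve1+ cells (-0.39, SE 0.10, adjusted p = 0.0281), a call that was lost without 12WT (adjusted p = 0.225), without 12DB (0.0985) or without 21WT (0.0565). Cd36 separated macrophages from cDC2-like cells (edgeR log2 fold change 2.44, SE 0.40, adjusted p = 0.000354) and from monocyte-like cells (2.88, SE 0.42, adjusted p = 0.000161), in 4 of 4 libraries each. DB and WT macrophages were within the fold at 12 weeks (ratio 1.29, 1.26 to 1.32) and at 21 weeks (1.05, 1.02 to 1.08), and in DB the level was 1.84-fold lower at 21 than at 12 weeks (1.79 to 1.89). In WT it was 1.49-fold lower (1.45 to 1.53), just short of the fold, which it passed with classes from clusters (log2 ratio -0.59) and after thinning (-0.69).

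The fatty acid binding proteins carry fatty acids through the cytosol, Fabp4 being the form best known from adipocytes and Fabp5 that of the epidermis. Fabp4 was nearly silent in 3 libraries, with 42 UMIs in 12WT macrophages, 100 in 12DB and 49 in 21WT, and reached 475 UMIs in 21DB. As levels these were 3.33, 6.56, 3.81 and 46.4 CPM, so 21DB stood apart from the other 3 libraries. Vsig4+ cells had 2.76, 2.36, 5.98 and 53.4 CPM of Fabp4 in 12WT, 12DB, 21WT and 21DB, Lyve1+ cells 2.32, 8.31, 1.13 and 25.1 CPM and Lyve1- cells 6.36, 7.28, 3.66 and 71.6 CPM, and 21DB was highest in each subset. The ratio of 21DB to 21WT was 12.2 (9.06 to 16.7) and that of 21DB to 12DB 7.08 (5.69 to 8.87). Before thinning, 15.98% of 21DB macrophages had a UMI of Fabp4 against 1.72% to 3.82% in the other libraries, and in alpha-beta T cells the share was at most 0.773%, in 21DB. The adipocyte markers that accompany Fabp4 in fat were at or near 0 in 21DB macrophages, 3 of 6 being detected with 9 UMIs in all, and Adipoq and Lep were at 0. Macrophages held 7.45%, 15.7%, 23.6% and 42.9% of the Fabp4 UMIs of 12WT, 12DB, 21WT and 21DB. The source of the Fabp4 RNA was not tested, and the adipocyte markers do not speak to other cell types. Fabp4 did not pass the test in any of the 5 comparisons within libraries (edgeR adjusted p 0.0627 to 0.671). In Lyve1+ against Lyve1- cells, where the log2 fold change was -1.05, it did pass without 12DB (-1.57, adjusted p = 0.000799 by edgeR) and under 5 other settings (-1.03 to -1.43, adjusted p 1.06e-06 to 0.0423): no count filter, at most 5% mitochondrial UMIs, doublets removed, classes from clusters and at least 2 UMIs of the gate gene. Against Lyve1+ cells, Vsig4+ cells passed without 12DB (1.19, adjusted p = 0.00884 by edgeR) and without the count filter (0.58, adjusted p = 0.0252), and macrophages passed against monocyte-like cells without 21DB (-1.24, adjusted p = 0.0316) and with clusters (-2.78, adjusted p = 0.00085). In cDC2-like cells too, 21DB had the highest level of Fabp4, at 28.8 CPM against 1.72 to 6.18 in the other libraries.

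Among the macrophage subsets, Fabp5 was highest in Lyve1- cells, with a range over libraries that overlapped those of monocyte-like and cDC2-like cells. Its levels in Lyve1- cells were 123 CPM in 12WT, 198 in 12DB, 229 in 21WT and 175 in 21DB, against 30.9, 81.0, 54.9 and 62.2 CPM in Lyve1+ cells and 37.9, 48.0, 30.8 and 58.3 CPM in Vsig4+ cells. In every library the Lyve1- value was the highest. By edgeR, Fabp5 was lower in Vsig4+ (log2 fold change -2.12, SE 0.18, adjusted p = 4.39e-07) and in Lyve1+ cells (-1.77, SE 0.17, adjusted p = 4.88e-06) than in Lyve1- cells, while Vsig4+ and Lyve1+ cells were not told apart (-0.35, SE 0.19, adjusted p = 0.363). Over all macrophages the level was 52.7, 102, 81.2 and 79.0 CPM in 12WT, 12DB, 21WT and 21DB, and 12WT was the lowest. The DB against WT ratio was 1.94 at 12 weeks (1.77 to 2.13) and 0.973 at 21 weeks (0.886 to 1.07). In WT, Fabp5 was 1.54-fold higher at 21 than at 12 weeks (1.40 to 1.70), which fell short of the fold with classes from clusters (log2 ratio 0.31) and after thinning (0.58). Fabp5 was lower in macrophages than in cDC2-like cells (edgeR log2 fold change -0.96, SE 0.26, adjusted p = 0.0101) and than in monocyte-like cells (-0.97, SE 0.28, adjusted p = 0.0133, 3 of 4 libraries), the latter lost without 21WT (adjusted p = 0.0866) or without 21DB (0.0671).

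Trem2 was the steadiest of the uptake genes between conditions. Macrophages had 462 CPM in 12WT, 419 in 12DB, 561 in 21WT and 491 in 21DB, and no ratio between libraries of macrophages passed the fold, the DB against WT ratios being 0.907 (0.875 to 0.940) at 12 weeks and 0.876 (0.845 to 0.908) at 21 weeks. By subset, Vsig4+ cells had 634, 502, 671 and 600.3 CPM, Lyve1+ cells 353, 361, 515 and 369.6 CPM and Lyve1- cells 412, 452, 406 and 433 CPM, and the Vsig4+ value was the highest in each library. Trem2 was higher in Vsig4+ than in Lyve1+ cells (edgeR log2 fold change 0.62, SE 0.10, adjusted p = 0.000961) and than in Lyve1- cells (0.43, SE 0.10, adjusted p = 0.00393). Of the 10 genes, it was among those that separated macrophages most from cDC2-like cells (2.41, SE 0.23, adjusted p = 5.45e-06 by edgeR) and monocyte-like cells (2.91, SE 0.25, adjusted p = 3.61e-06).

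Plin2, the storage gene, was set apart by the 21DB library. Its macrophage level was 150.1 CPM in 12WT, 126 in 12DB, 97.1 in 21WT and 244 in 21DB. In Vsig4+ cells it was 165, 117, 104 and 259 CPM, in Lyve1+ cells 140.04, 114, 85.6 and 203 CPM and in Lyve1- cells 147, 158, 100.2 and 284 CPM in 12WT, 12DB, 21WT and 21DB, so 21WT was the lowest and 21DB the highest library in every subset. The DB against WT ratio was 0.837 at 12 weeks (0.785 to 0.893), within the fold, and 2.51 at 21 weeks (2.34 to 2.69). From 12 to 21 weeks Plin2 was 1.94-fold higher in DB (1.83 to 2.06) and 1.55-fold lower in WT (1.44 to 1.66), where the log2 ratio of -0.63 fell short of the fold with classes from clusters (-0.55), after thinning (-0.39) and with TMM scaling (-0.47). The thinned share of Plin2-positive macrophages was 22.5%, 20.2%, 17.5% and 36.9%, and that of T cells 5.96%, 4.20%, 3.41% and 8.50%, so that T cells were also highest in 21DB, at 53.4 CPM against 17.9 to 33.4 in the other libraries. Between subsets, Plin2 was lower in Lyve1+ than in Lyve1- cells (edgeR log2 fold change -0.41, SE 0.09, adjusted p = 0.00438), a call lost with classes from clusters (adjusted p = 0.0709). Macrophages had less Plin2 than monocyte-like cells (-0.75, SE 0.16, adjusted p = 0.00191 by edgeR) in 3 of 4 libraries and did not differ past the test from cDC2-like cells (0.19, SE 0.15, adjusted p = 0.316).

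Lipa encodes lysosomal acid lipase, which hydrolyses the cholesteryl esters and triglycerides of engulfed lipoproteins. It was even across conditions, at 145, 161, 123 and 153 CPM in 12WT, 12DB, 21WT and 21DB macrophages, and none of the 4 ratios between libraries passed the fold. The subsets were ordered in each library, with 171, 169.6, 142 and 177 CPM in Vsig4+ cells, 144, 166, 125 and 139.5 CPM in Lyve1+ cells and 107, 143, 81.6 and 112 CPM in Lyve1- cells. Lipa was higher in Vsig4+ than in Lyve1- cells (edgeR log2 fold change 0.53, SE 0.08, adjusted p = 0.000224). Its difference between Lyve1+ and Lyve1- cells was smaller (0.29, SE 0.08, adjusted p = 0.0236 by edgeR) and lost the test with DESeq2 (adjusted p = 0.0518), after thinning (0.122), with at least 2 UMIs of the gate gene (0.0686), with classes from clusters (0.122) and without 12WT (0.124), 21WT (0.177) or 21DB (0.0659). Macrophages were above cDC2-like (0.70, SE 0.15, adjusted p = 0.00194 by edgeR) and monocyte-like cells (0.75, SE 0.16, adjusted p = 0.00232).

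Of the efflux genes, Apoe changed most between the libraries. Summed macrophages had 4392 CPM in 12WT, 3929.7 in 12DB, 3195 in 21WT and 12893 in 21DB, which lay far above the first 3. By median of single macrophages the first 3 were less alike, at 27.3, 8.61 and 9.77 UMIs per 10000. In Vsig4+ cells the levels were 4793, 5283, 3075 and 16305 CPM, in Lyve1+ cells 3772, 2996, 2768 and 8386 CPM and in Lyve1- cells 5040.1, 4428, 4139 and 12610.4 CPM in 12WT, 12DB, 21WT and 21DB. DB was thus 4.03-fold above WT at 21 weeks (3.99 to 4.08), while at 12 weeks the ratio was 0.895 (0.884 to 0.905). In DB, the 21-week level was 3.28-fold the 12-week level (3.25 to 3.31), or 1.87 on the log2 scale relative to the median of all genes, and in WT the ratio of the ages was 0.728 (0.718 to 0.737). The 21-week log2 ratio was 2.41 (2.38 to 2.43) in Vsig4+ cells, 1.60 (1.57 to 1.63) in Lyve1+ cells and 1.61 (1.57 to 1.64) in Lyve1- cells, and these intervals cover counting error, so that the difference between subsets was not tested across samples. Outside macrophages, 21DB was again the highest library in monocyte-like cells, at 1085, 1464, 1281 and 3877 CPM (DB against WT at 21 weeks 1.60 on the log2 scale, 1.53 to 1.66). The same held in cDC2-like cells, at 102, 133, 112 and 272 CPM (1.28, 1.17 to 1.39). In mast cells, however, 12WT was the highest library. Alpha-beta T cells, taken as background, had 83.7, 86.1, 58.9 and 97.8 CPM.

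Between subsets, Apoe was lower in Lyve1+ than in Lyve1- cells (edgeR log2 fold change -0.62, SE 0.11, adjusted p = 0.000998) and higher in Vsig4+ than in Lyve1+ cells (0.61, SE 0.11, adjusted p = 0.00345), and both calls were lost with classes from clusters (adjusted p = 0.0896 and 0.0900). Vsig4+ and Lyve1- cells did not differ past the test (-0.02, SE 0.11, adjusted p = 0.934), the 2 DB libraries lying above 0 and the 2 WT libraries below it. Against cDC2-like cells, Apoe had the largest fold change of the 10 genes (4.99, SE 0.15, adjusted p = 2.34e-09 by edgeR), and against monocyte-like cells it was also higher (1.41, SE 0.13, adjusted p = 6.07e-06).

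The exporters that load cholesterol onto apolipoproteins were lower in DB than in WT macrophages at 21 weeks, where Apoe was higher. At 12 weeks, the log2 DB against WT ratios of Apoe (-0.16), Abca1 (-0.97) and Abcg1 (-0.24) were all negative. With age in WT they were negative too, at -0.46, -0.43 and -0.46. Abca1, which lipidates lipid-poor apolipoproteins, was at 388 CPM in 12WT macrophages, 199 in 12DB, 289 in 21WT and 127 in 21DB, so both DB libraries lay below both WT libraries. The levels were 399, 229.6, 297 and 134 CPM in Vsig4+ cells, 395, 196, 280.2 and 108 CPM in Lyve1+ cells and 356, 173, 287 and 149 CPM in Lyve1- cells, and DB lay below WT of the same age in all 3 subsets. Abca1 was 1.96-fold lower in DB at 12 weeks (1.87 to 2.05) and 2.27-fold lower at 21 weeks (2.13 to 2.42). Monocyte-like cells had 17.7, 43.7, 103 and 115 CPM in 12WT, 12DB, 21WT and 21DB, from 21, 52, 360 and 105 UMIs. There DB lay above WT at 12 weeks on few UMIs and was nearly level with it at 21 weeks. Cells of the cDC2-like class had 44.5, 32.0, 46.0 and 93.9 CPM, with DB below WT at 12 weeks and above it at 21 weeks. Most markers of the macrophage gate were likewise lower in DB at both ages, and their part in the Abca1 levels was not tested. None of the subset comparisons passed the test for Abca1 (edgeR adjusted p 0.342 to 0.641). Macrophages were above cDC2-like cells (2.16, SE 0.46, adjusted p = 0.00213 by edgeR) and above monocyte-like cells (1.72, SE 0.48, adjusted p = 0.0123), the latter lost without 12DB (adjusted p = 0.0556).

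Abcg1, which passes cholesterol to mature lipoprotein particles, was at 80.2, 68.0, 58.4 and 44.1 CPM in 12WT, 12DB, 21WT and 21DB macrophages. The DB against WT ratios of 0.847 (0.776 to 0.925) at 12 weeks and 0.754 (0.670 to 0.849) at 21 weeks were within the fold. The subsets differed more than the conditions, with 119.7, 97.7, 92.2 and 72.2 CPM in Lyve1- cells, 76.5, 68.8, 56.7 and 45.6 CPM in Lyve1+ cells and 60.6, 36.2, 43.6 and 33.3 CPM in Vsig4+ cells. Abcg1 was lower in Vsig4+ (edgeR log2 fold change -1.19, SE 0.10, adjusted p = 2.47e-07) and Lyve1+ cells (-0.70, SE 0.09, adjusted p = 6.24e-05) than in Lyve1- cells and lower in Vsig4+ than in Lyve1+ cells (-0.49, SE 0.09, adjusted p = 0.00425, lost after thinning at 0.208). It was lower in macrophages than in cDC2-like cells (-0.78, SE 0.16, adjusted p = 0.00151 by edgeR) and, in 3 of 4 libraries, monocyte-like cells (-0.57, SE 0.17, adjusted p = 0.0179), the latter lost without 21WT (adjusted p = 0.19) and with classes from clusters (0.479). Over all 10 genes, 5 were higher and 3 lower in macrophages than in cDC2-like cells, where 22.7% and 23.6% of 12482 genes were, and 5 higher and 3 lower than in monocyte-like cells, where 23.5% and 22.6% were.

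At the level of single cells, the higher Apoe of 21DB was not confined to a few barcodes. The median macrophage had 27.3 Apoe UMIs per 10000 in 12WT, 8.61 in 12DB, 9.77 in 21WT and 71.1 in 21DB, and the 90th percentile was 124, 142, 104 and 378. The top 10% of barcodes held 45.5%, 56.9%, 51.0% and 42.7% of the Apoe UMIs, the smallest share being that of 21DB. The median of Plin2 was 1.05, 0.942, 0.656 and 1.81 UMIs per 10000 in the same order, and that of Abca1 3.48, 1.29, 2.27 and 0.703. For Lpl, the top 10% of barcodes carried 63.1% and 63.6% of the UMIs in 12WT and 12DB, 69.5% in 21WT and 84.8% in 21DB. This share rises as a gene's level falls, so it does not tell fewer cells with Lpl from a lower level per cell.

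**Figure D5:**
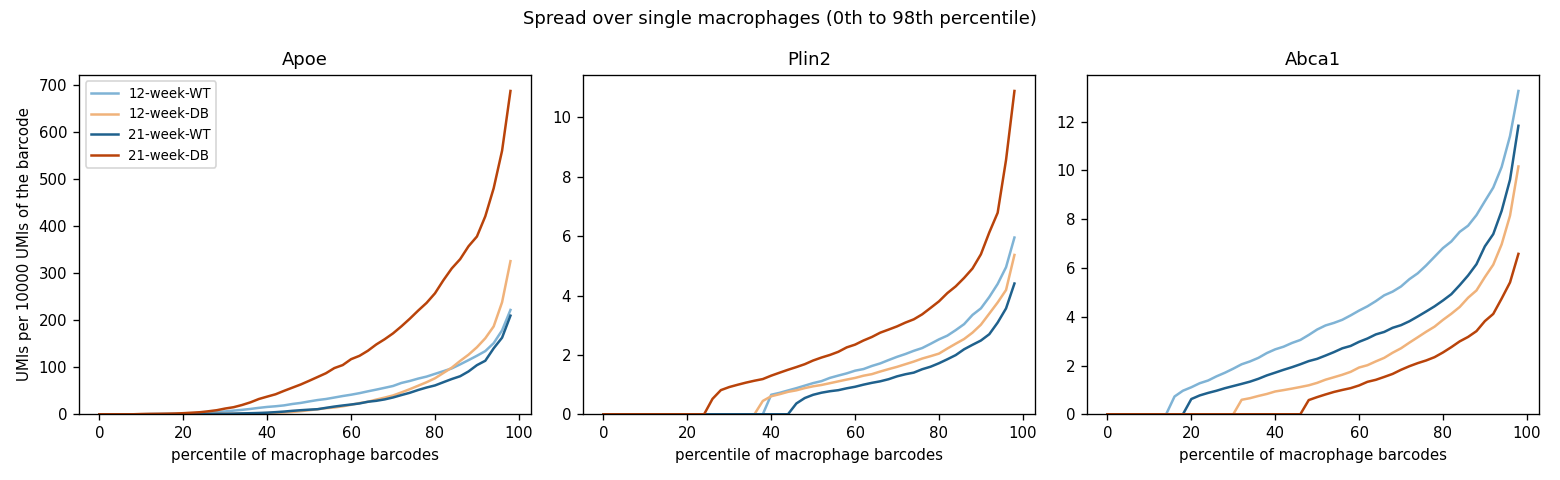
UMIs per 10000 UMIs of the barcode (vertical axis) against the percentile of macrophage barcodes, from 0 to 98, for Apoe, Plin2 and Abca1 in the 4 libraries. The 21DB curve was the highest from the median upwards for Apoe and Plin2 and the lowest for Abca1.

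Abca1 was found more often in macrophages with Apoe than in those without. Among macrophages thinned to 2000 UMIs, Abca1 had a UMI in 53.9% of the Apoe-positive and 39.1% of the Apoe-negative cells of 12WT, in 37.8% and 18.5% of 12DB, in 46.1% and 30.0% of 21WT and in 22.5% and 9.13% of 21DB. Lpl went the other way, at 26.5% of the Apoe-positive and 37.9% of the Apoe-negative cells of 12WT, 23.3% and 37.9% of 12DB, 12.7% and 15.4% of 21WT and 6.06% and 7.31% of 21DB. Both directions held in all 4 libraries, with small gaps for Lpl at 21 weeks, and cells of a library are not replicates.

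A wider list of 40 other genes of lipid uptake, storage, breakdown, efflux, regulation and lipid-associated macrophages gave the surroundings of the 10 genes. Between Vsig4+ and Lyve1- cells, 9 of 36 tested were higher and 10 lower, beside 14.9% and 13.8% of all genes, the largest being Fabp3 (edgeR log2 fold change 1.93, SE 0.22, adjusted p = 8.37e-06), the scavenger receptor Olr1 (1.65) and the tetraspanin Cd9 (0.76) upwards and the fatty acid sensor Pparg (-1.85), Gpnmb (-1.67) and the lipase inhibitor Hilpda (-1.27) downwards. Lyve1+ against Lyve1- cells gave 0 higher and 11 lower of 36, beside 8.79% and 9.58% of all genes, led by Gpnmb (-2.35, SE 0.22, adjusted p = 2.93e-06 by edgeR), Spp1 (-1.55) and Pparg (-1.47). Vsig4+ against Lyve1+ cells gave 6 higher, led by Fabp3 (1.37), Olr1 (1.25) and the fatty acid transporter Slc27a1 (0.70), and 2 lower, Dgat2 (-0.63) and Lgals3 (-0.37), of 36, beside 4.18% and 2.09% of all genes. Of the 6 lipid-associated macrophage genes of the list, 4 were lower in Lyve1+ than in Lyve1- cells and 0 higher. The median log2 fold change of the list was 0.07, -0.08 and 0.08 in these comparisons.

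Against cDC2-like cells, 17 of 38 genes of the wider list were higher in macrophages and 9 lower, beside 22.7% and 23.6% of all genes, led by Fabp3 (4.35), the scavenger receptor Msr1 (3.65) and Gpnmb (3.57) and by Hilpda (-1.91), the triglyceride synthase Dgat2 (-1.73) and Pparg (-1.45). Against monocyte-like cells, 13 of 38 were higher and 12 lower, beside 23.5% and 22.6% of all genes, led by Cd63 (3.11), the phospholipid transfer protein Pltp (2.98) and Fabp3 (2.91, higher in 2 of 4 libraries) and by G0s2 (-4.02), Apoc1 (-3.68) and Apoc2 (-3.01). All of these named differences passed the edgeR test. The count of libraries for Fabp3 left out any library with no UMI of it in either class, where no ratio can be formed. Macrophages had 115, 93, 185 and 119 UMIs of Fabp3 in 12WT, 12DB, 21WT and 21DB.

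Between conditions, genes of the wider list of 40 past the fold in macrophages were counted beside the share of all genes. At 12 weeks 1 was higher in DB, Lgals3 (log2 ratio 0.86). Of 4 that were lower, Spp1 (-1.79), Olr1 (-1.64) and Mylip (-1.03) were the lowest. Another 14 were too low to count, and 2.21% and 5.62% of all genes were past the fold upwards and downwards. At 21 weeks 4 were higher in DB, Apoc2 (2.36), Spp1 (2.00), Lgals3 (0.85) and Hilpda (0.70), and 2 were lower, among them Pltp (-0.84). Here 15 were too low to count, beside 8.22% and 7.76% of all genes past the fold. Spp1, encoding osteopontin, was at 80.5 CPM in 12WT, 23.3 in 12DB, 40.6 in 21WT and 162 in 21DB. With age in WT, Hilpda (0.64) was higher, where 1.58% of all genes were. Spp1 (-0.99), Pla2g15 (-0.80) and Mylip (-0.75) were the lowest of 4 lower, where 6.79% of all genes were. In DB, Spp1 (2.80), Apoc2 (2.02) and Olr1 (1.59) led 4 higher, and 1 was lower, where 5.57% and 13.3% of all genes were. Too low to count with age were 13 genes in WT and 12 in DB.

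The genes whose levels followed the 10 genes most closely were read over the 60 sums of 15 classes in 4 libraries, from 6294 candidates and as a description, since sums of a library share its depth and its mice. Trem2 was followed most closely by the purinergic receptor P2ry6 (Pearson r = 0.93), the lysosomal mannosidase Man2b1 (0.93) and the complement receptor C3ar1 (0.92), and Cd36 by Tmem106a (0.89), Stard8 (0.89) and P2ry6 (0.89). Lipa went with Cd68 (0.87), Emp3 (0.87) and Gpx1 (0.86), and Apoe with the lysosomal membrane protein Lamp1 (0.87), F13a1 (0.85) and the protease Lgmn (0.85). For Lpl these were fibronectin, Fn1 (0.86), Sdc3 (0.85) and Daglb (0.85), for Plin2 Gda (0.85), the ferritin light chain Ftl1 (0.85) and Sem1 (0.84), and for Abca1 Pmp22 (0.82) and Etv1 (0.80). Fabp4 with Esd (0.77), Ggh (0.72) and Mrpl20 (0.71), Fabp5 with Pgs1 (0.71), Pik3r5 (0.71) and Shtn1 (0.68) and Abcg1 with Arhgap26 (0.71), Vav1 (0.69) and Tpm3-rs7 (0.68) had looser neighbours.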

How the data were processed

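CD45+ cells of the hindpaw were sorted by FACS, pooled over the mice of a group and run on the 10x Genomics 3' v3 platform, 1 library per condition. The values analysed are the UMI counts per gene and barcode in the filtered matrices that the authors deposited, which were made with Cell Ranger (5.0.0 in the file headers at 12 weeks, 6.0.0 at 21 weeks; 5.0.0 throughout in the submitters' processing notes) against mm10 and are not normalised. From these, barcodes were kept from 200 detected genes upwards and up to a mitochondrial share of 10%. A barcode took the class with the highest mean z-score of its markers where that score was at least 0.5, led the next by at least 0.25 and at least 3 of the markers were detected, and 2147 barcodes lay within 0.1 of a limit. None of the 10 genes was a marker. Doublets were left in, and removing the highest Scrublet scores was an alternative, since Scrublet's own limit marked 0.02% of the barcodes of 21DB.

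UMIs were summed per library and class, scaled to a sum of 1000000 (CPM), and tested within libraries with edgeR 4.0.16 (TMM, filterByExpr, quasi-likelihood, library block; 4 libraries as replicates, 2-sided) in R 4.3.3, the scripts having been tested on simulated data. Between conditions there is no test. Exact Poisson, binomial and Clopper-Pearson intervals are at 95%. Clusters were made with scanpy 1.11.5 and the alternative count test with DESeq2 1.42.0. The rule for named genes took all 10 genes in each comparison, the 3 largest rises and falls among called genes of a fixed list of 40 lipid genes, and the 3 genes most correlated with each of the 10. The 10 genes, the lists and the gates were chosen with earlier results of these data known, and the age comparisons and the fits without shared barcodes were added after seeing the data. No library came with replicate mice kept apart. With the library block, p-values measure how evenly a difference within libraries held over 4 libraries of differing genotype and age. They do not measure the spread between mice. Some genes that the rule would name are not reported here.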

Additional observations from a re-analysis of the deposited data

Results flagged for a closer look

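For 3 of the 10 genes the DB against WT log2 ratio in macrophages had opposite signs at the 2 ages, with 1 library behind each value, and the difference between the ages was not tested. For Apoe it was -0.16 at 12 weeks and 2.01 at 21 weeks. For Plin2 it was -0.26 at 12 weeks and 1.33 at 21 weeks. For Lpl it was 0.24 at 12 weeks and -1.36 at 21 weeks. The 12-week values of these genes were all within 1.5-fold, and that of Lpl came to -0.02 after thinning to 2000 UMIs.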

How the results depend on the processing

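Between conditions, no paired analysis was possible because each condition has 1 library and the labels give no replicate numbers. The tests within libraries were paired by library. The library block is part of the tests, and without it the genes called were 980 (main 3174) with 3 of the 10 for Vsig4+ against Lyve1- cells, 288 (2027) with 1 of the 10 for Lyve1+ against Lyve1- cells, and 1 (692) with 0 of the 10 for Vsig4+ against Lyve1+ cells. Thinning to 2000 UMIs gave 1233, 819 and 361 calls in these comparisons, 3556 (5783) against cDC2-like and 3061 (5758) against monocyte-like cells, and 837 (540) genes past the fold with age in WT; it changed the split at 12 weeks from 145 higher and 369 lower to 292 and 420. No filter on low counts gave 1091 calls with 8 of the 10 for Vsig4+ against Lyve1+ cells, and no filter on genes between conditions gave 4308 (514) and 5206 (1011) genes past the fold for DB against WT at 12 and 21 weeks and 4375 (540) and 5126 (1228) with age in WT and DB. Leaving out each library gave 1330 to 1684 calls for Lyve1+ against Lyve1- and 382 to 512 for Vsig4+ against Lyve1+ cells, the lowest of each without 12WT, and 6 to 8 and 4 to 7 of the 10.

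Signs turned for differences that did not pass the test in the main fit. For Apoe in Vsig4+ against Lyve1- cells (-0.02) the log2 fold change was 0.0031 without the count filter, 0.11 without the block, 0.0066 without doublets, 0.11 with classes from clusters, 0.076 with at least 2 UMIs of the gate gene and 0.31 after thinning, where edgeR gave an adjusted p of 0.0381, and leaving out each library gave -0.17 (without 21DB) to 0.12 (without 21WT), with 0.01 without 12WT. Abca1 in that comparison was -0.029 without 12DB and up to 0.11 without 21DB, and Plin2 was 0.0061 with clusters. With clusters, Abca1 in Lyve1+ against Lyve1- cells was 0.078, Plin2 against cDC2-like cells -0.020 and Lpl against monocyte-like cells 0.31. Lpl against monocyte-like cells ranged from -0.64 without 12WT to 0.030 without 21DB, and Fabp4 was 0.019 without the block. The cause was not tested. Of 320 alternative ratios of the 10 genes between conditions, 256 stayed within the counting interval of the main value, and the same 5 genes passed the fold at 21 weeks in DB against WT throughout. Calls were also gained by edgeR: Trem2 was lower in Lyve1+ than in Lyve1- cells without 21WT (-0.35, adjusted p = 0.0258), and in Vsig4+ against Lyve1+ cells Plin2 (0.32, adjusted p = 0.0491) and Lipa (0.28, adjusted p = 0.0465) passed without 12DB and Fabp5 (-0.35, adjusted p = 0.00532) and Plin2 (0.26, adjusted p = 0.0241) without the count filter.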

Other observations

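The 951, 1702, 1777 and 2500 barcodes of 12WT, 12DB, 21WT and 21DB that fell in no class also carried the 10 genes. Their Apoe level was 782, 685, 518 and 2134 CPM and that of Lpl 654, 599.7, 145 and 55.5 CPM. In neutrophils of 12DB, Lpl stood at 555 CPM although 5.38% of the 93 barcodes had a UMI of it.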
